A study of Rattus norvegicus with 15 samples.

Results

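The respiratory chain of the mitochondrial inner membrane was followed through the transcripts of its subunits in 15 RNA-seq libraries of rat bone marrow mesenchymal stem cells. Members were chosen by gene name (symbols starting with Nduf, Uqcr, Cox4, Cox5, Cox6, Cox7, Cox8 or Atp5, together with Sdha, Sdhb, Sdhc, Sdhd and Cyc1), and every gene on the mitochondrial chromosome was added and kept apart. This gave 90 nuclear rows with 87 different symbols and 13 mitochondrially encoded genes, 103 of the 12169 genes in the table. Of the nuclear rows, 76 are subunits: 35 of complex I, 4 of complex II, 9 of complex III, 13 of complex IV and 15 of complex V. The other nuclear rows are 7 complex I assembly factors (Ndufaf), 4 associated genes (Ndufa4l2, Cox7a2l, Atp5s and Atp5sl) and 3 short second rows that share a symbol with a subunit. The Ndufa13 row, counted as a complex I subunit, spans 429 bases and, like these 3, lies on another chromosome than its RefSeq gene. Its values and calls below are therefore uncertain. Cox6b2, Cox7a1, Cox7b2, Cox8b and Cox8c, the remaining isoforms of complex IV subunits, are not analysed here.

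Complex I oxidises NADH and complex II oxidises succinate, and both pass electrons to ubiquinone. Complex III hands them to cytochrome c, complex IV passes them to oxygen, and complex V uses the proton gradient built on the way to make ATP. Core subunits mostly carry the redox centres, the proton channels or the catalytic sites, whereas accessory subunits surround them in animals. Of the nuclear complex V subunits, Atp5a1, Atp5b, Atp5c1, Atp5d and Atp5e were counted as core here. Atp5f1, Atp5o and the genes of the proton-carrying c-ring (Atp5g1, Atp5g2 and Atp5g3) were counted as accessory. The split between core and accessory is thus a convention in complex V and does not strictly follow function. Complex II is the exception in being wholly encoded in the nucleus, while each of the others joins nuclear subunits with mitochondrially encoded ones.

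The cells came from the femoral marrow of Sprague Dawley rats and were at passages 3 to 5. The 5 groups of 3 libraries were uninfected cells (BMSC), cells that had received only a lentivirus with the control hairpin shLuci, cells that had received only the shRac1 lentivirus, and the shLuci and shRac1 cells after oxygen and glucose deprivation (OGD), which is 12 h in medium without sugar at 1% O2, followed by 24 h of reoxygenation. Cells without OGD were grown in high-glucose medium in a normal incubator. All infected cells carry a virus, so a difference between hairpins is not a difference from untouched cells. Whether replicates are separate cultures or separate animals is not in the labels, and p-values therefore measure only the spread between these libraries.

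Values are FPKM, a level scaled to transcript length and to library size, and the number of reads behind each is unknown. Summed FPKM ran from 463945 to 516495 in 14 libraries and reached 628685 in BMSC replicate 2. Genes at 0 numbered 144 in that library and 42 to 78 in the rest. Rac1, the gene targeted by the hairpin, stood at 147 ± 4.96 FPKM in the libraries labelled shRac1 and at 156 ± 9.90 in those labelled shLuci (SD, n = 3, two-sided exact permutation p = 0.3, smallest possible 0.1). After OGD it stood at 155 ± 2.57 and 156 ± 14.6 FPKM (SD, n = 3, exact permutation p = 0.9). The hairpin labels are thus not borne out by the targeted transcript, and every direction between hairpins below rests on the sample titles. Of the marker lists, 5 of 7 mesenchymal markers were in the table, with summed levels of 4098 to 5572 FPKM over all libraries. The erythroid and adipocyte markers were not analysed here, and the leukocyte list had 2 of 5 markers, Cd14 and Cd68.

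The transcripts of the chain were abundant in these cells. The median nuclear member stood at 111 FPKM over the 15 libraries, against 10.3 for all genes. A mean above 100 FPKM was reached by 51 of the 90 nuclear rows (56.7%), compared with 7.45% of all genes, and no member was at 0 in any library. All 103 members passed the filter on low values (at least 1 FPKM in at least 3 libraries). Of the nuclear subunits of complex I, Ndufb9, an accessory subunit of its membrane arm, had the highest mean, at 240.3 FPKM. The corresponding subunits were Sdhc, a membrane anchor, at 112 FPKM in complex II and Uqcr11, a small accessory subunit, at 238 FPKM in complex III. They were Cox6c, another small accessory subunit, at 574 FPKM in complex IV and Atp5b, the catalytic beta subunit, at 664 FPKM in complex V. The levels of complex II subunits were thus below the top of every other complex, and in 14 libraries they ran from 87.4 to 116 FPKM for Sdhb, from 83.7 to 132 for Sdhc and from 48.4 to 74.7 for Sdhd. FPKM is scaled to length of transcript, but short transcripts and shared reads can still distort it, so levels of different genes compare only roughly.

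The mitochondrially encoded genes stood higher still, and Mt-co1, the catalytic subunit of complex IV, was the most abundant gene of the whole table with a mean of 4995 FPKM. The other complex IV genes followed, Mt-cox3 at 3762 and Mt-co2 at 3020 FPKM, and then Mt-cyb, the only complex III gene of the set, at 2583 FPKM. The complex V genes Mt-atp8 and Mt-atp6 had means of 2009 and 599 FPKM. The complex I genes ran from Mt-nd2 at 1594 FPKM over Mt-nd3 at 1342, Mt-nd1 at 1209, Mt-nd4l at 1174, Mt-nd4 at 1120 and Mt-nd5 at 779.7 down to Mt-nd6 at 94.9. Mt-nd6 lies on the opposite strand from the other 12. The transcript annotations of Mt-atp8 and Mt-atp6, of Mt-nd4l and Mt-nd4 and of Mt-nd5 and Mt-nd6 share some bases, and the sources used here do not say whether counting used the strand, so reads in those overlaps cannot be told apart.

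Across the 4 infected groups, the levels of the nuclear members moved little. The ratio between the highest and the lowest of the 4 group means had a median of 1.17 over the 90 nuclear members, 1.21 over the 13 mitochondrially encoded genes and 1.31 over all 11515 genes tested. It exceeded 1.5 in 6 nuclear members (6.67%), compared with 29.4% of all genes. All genes were not matched for level, with a median of 10.3 FPKM against 111 for the nuclear members, and the part of level was not tested. The 6 members over 1.5 were Ndufa4l2 (ratio 3.10), Cox4i2 (1.94), Cox6a2 (1.90), Atp5s (1.82), Ndufa13 (1.62) and the short second Ndufv3 row (1.53). The highest of the 4 means was that of shLuci+OGD for 52 of the 90 nuclear members (57.8%), for 15 of the 18 core subunits (83.3%), for 29 of the 58 accessory subunits (50%) and for 10 of the 13 mitochondrially encoded genes (76.9%). The same group was highest for 41.4% of all genes. These shares describe the group means and were not tested.

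**Figure D1:**
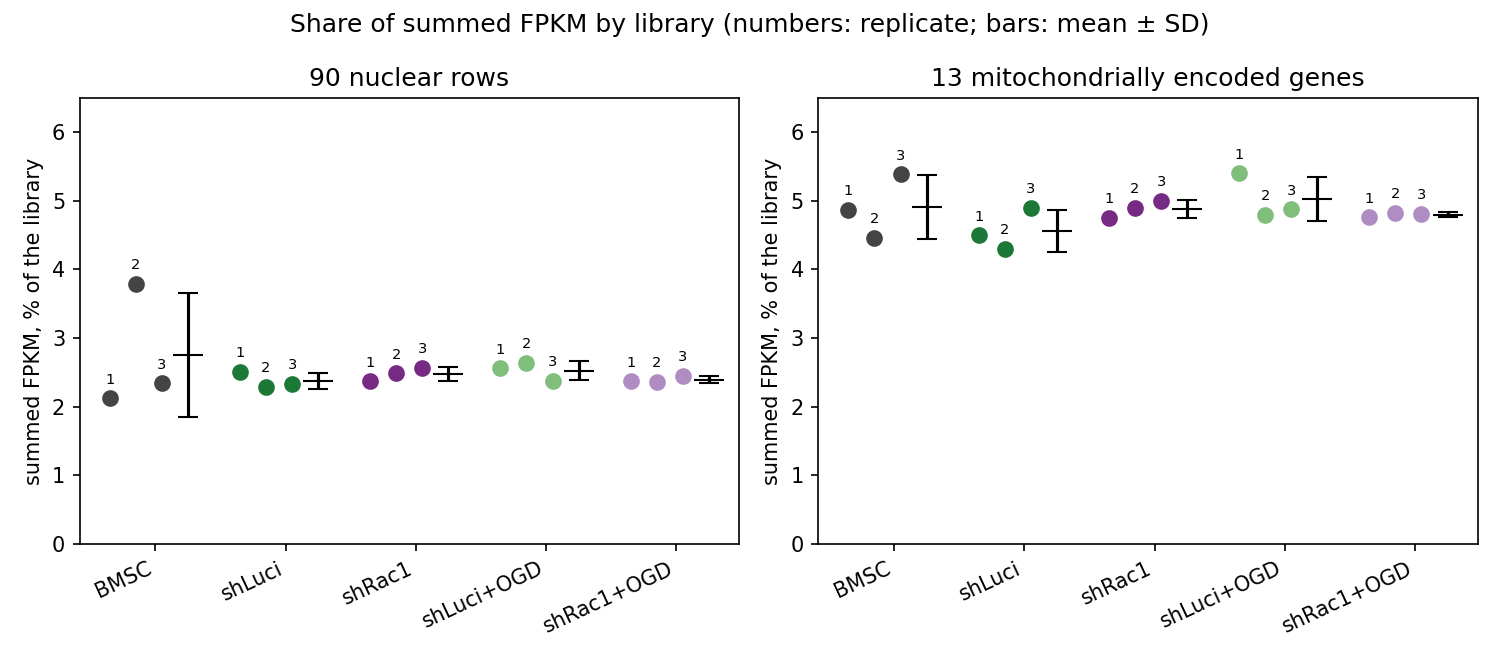
Summed FPKM of the 90 nuclear rows (left) and of the 13 mitochondrially encoded genes (right) as a percentage of the library total, with 1 point per library numbered by replicate and the mean ± SD of each group (n = 3) beside it. BMSC replicate 2 reaches 3.79% for the nuclear rows, above the 2.12% to 2.64% of the other 14 libraries, and lies inside their range for the mitochondrially encoded genes.

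BMSC replicate 2 stood apart in its respiratory transcripts. The 90 nuclear rows made up 2.12% and 2.34% of the summed FPKM in BMSC replicates 1 and 3 and 3.79% in replicate 2, while the mitochondrially encoded genes made up 4.87%, 5.39% and 4.46% in replicates 1, 3 and 2. Relative to the mean of replicates 1 and 3, the nuclear members were higher in replicate 2 by a median of 1.19 on the log2 scale, whereas the median of all genes tested was -0.15. Of the nuclear members 74 (82.2%) lay above all 14 other libraries in replicate 2, compared with 23.6% of all genes. The accessory subunits did so in 55 of 58 cases (94.8%) and the core subunits in 10 of 18 (55.6%). Ndufa3, an accessory subunit of complex I, stood at 64.7 and 89.9 FPKM in BMSC replicates 1 and 3 and at 278 FPKM in replicate 2.

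Below all 14 other libraries in BMSC replicate 2 lay 8 nuclear members (8.89%), compared with 42.8% of all genes. They include Ndufs1, the large iron-sulfur subunit of the NADH-oxidising arm, at 38.6 and 33.2 FPKM in replicates 1 and 3 and 15.2 FPKM in replicate 2. Sdha, the succinate-oxidising flavoprotein of complex II, gave 45.2, 42.9 and 30.3 FPKM in the same order. Uqcrc2, a subunit of the matrix arm of complex III, gave 67.0, 70.5 and 43.5 FPKM. Among the mitochondrially encoded genes 7 lay above (53.8%) and 4 below (30.8%) all other libraries. Mt-nd3 stood at 1049 and 1311 FPKM in replicates 1 and 3 and at 3054 FPKM in replicate 2, and Mt-nd5 at 854, 809.9 and 285 FPKM in the same order. The SD of the log2 values within BMSC accordingly had a median of 0.71 over the nuclear members, against 0.062 to 0.155 in the other 4 groups. Because all groups share an estimate of the spread, this library weighs on every test below, and the counts of called members are given with and without it.

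**Figure D2:**
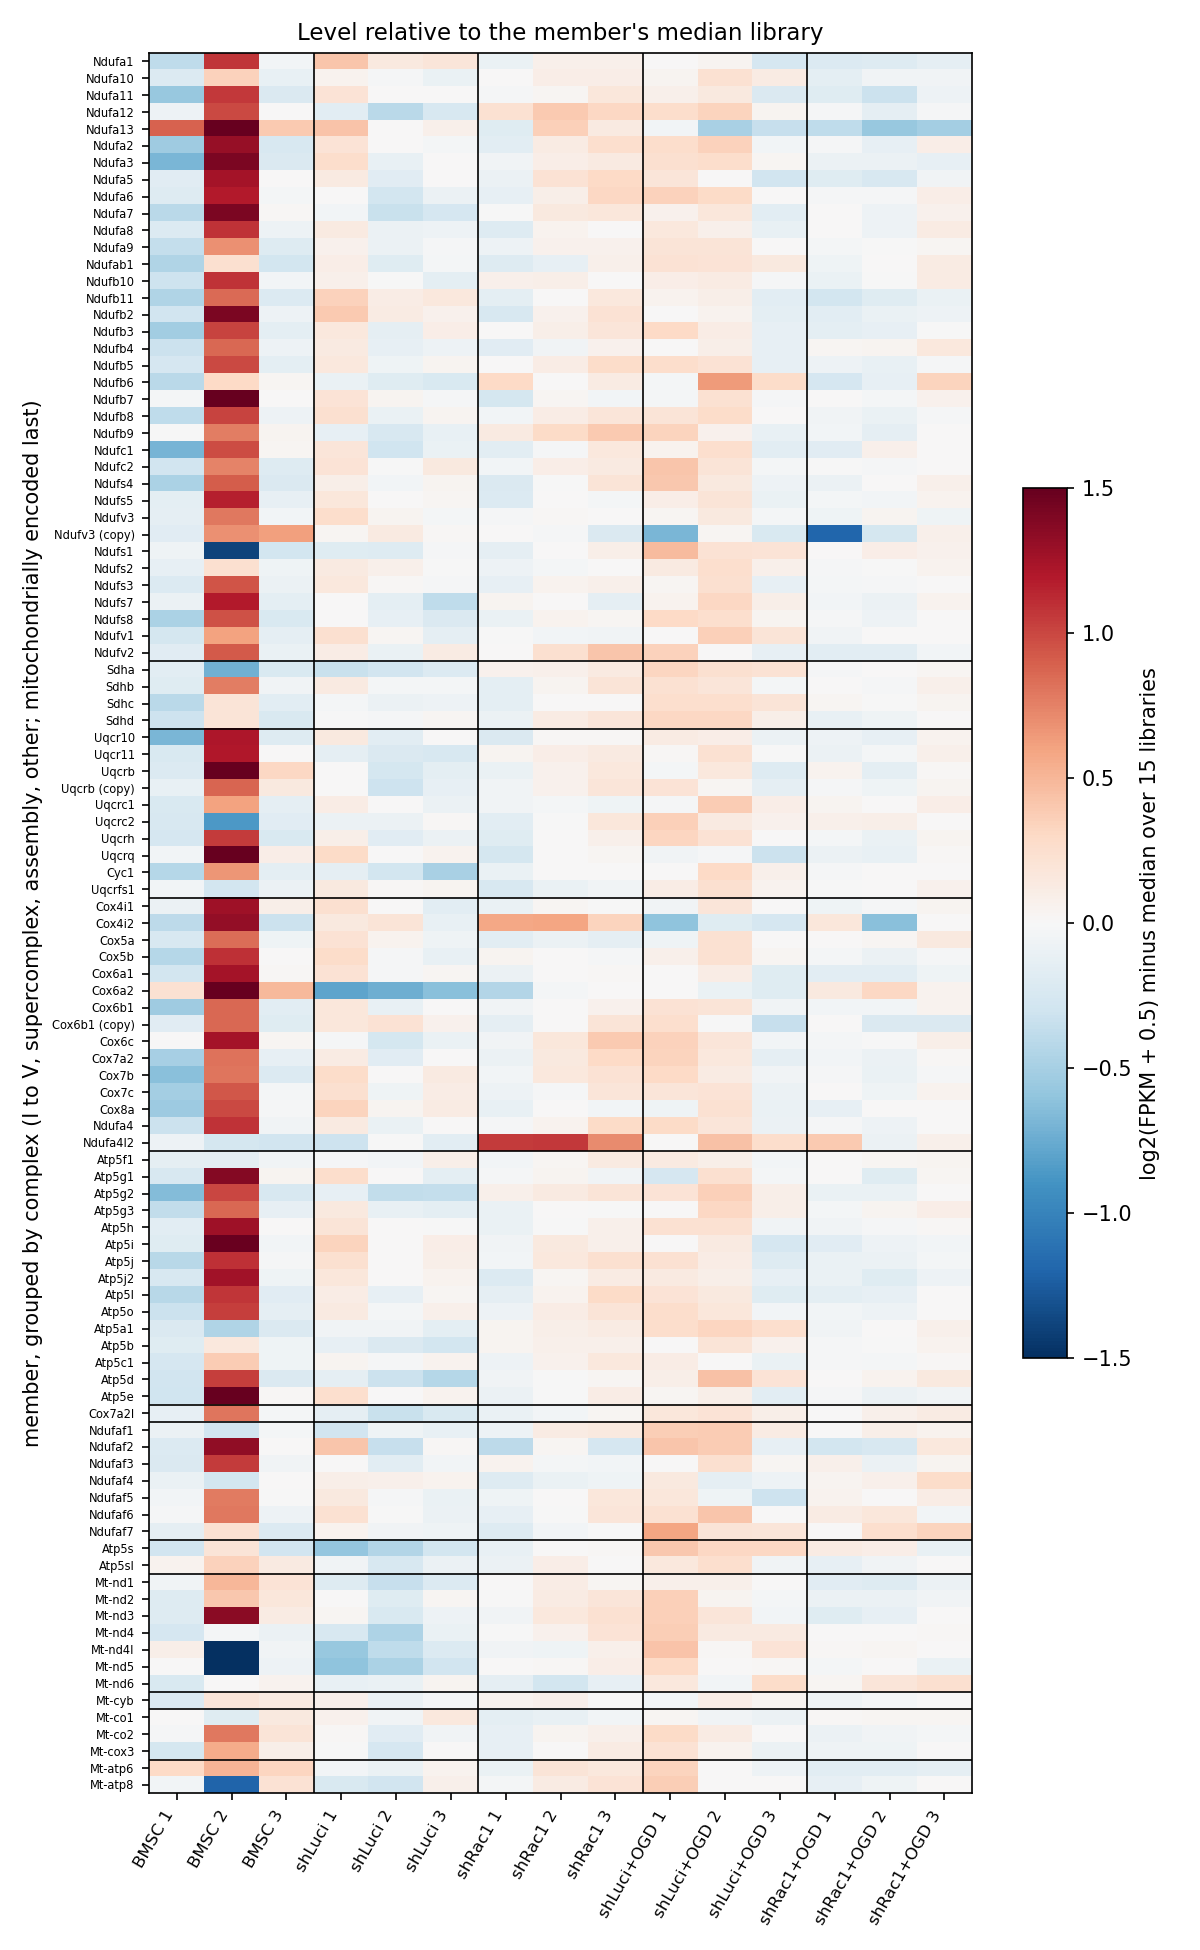
Level of each member in each library as log2(FPKM + 0.5) minus the median of that member over the 15 libraries, with rows grouped by complex and the mitochondrially encoded genes last, and columns in the order of the 5 groups. The column of BMSC replicate 2 is high in 74 of the 90 nuclear rows and low in Ndufs1, Sdha and Uqcrc2, among others, while the 12 columns of the infected groups differ far less.

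OGD and reoxygenation in the cells labelled shLuci went with called rises of 5 of the 90 nuclear members and of 1 mitochondrially encoded gene. Sdha, Atp5a1 (the alpha subunit of ATP synthase), Atp5b, Atp5s (a coupling factor bound to ATP synthase) and Ndufaf1 (a complex I assembly factor) rose, and so did Mt-nd4, a proton-pumping subunit of complex I. No member fell, and 11 nuclear members had an unadjusted limma p below 0.05 in either direction. The 5 of 90 nuclear members called compare with 13.1% of all genes called higher and 9.18% called lower (adjusted p below 0.05, limma), and 5 of 90 is 5.56%. The libraries of the 2 groups did not overlap for 23 nuclear members higher and 6 lower after OGD, against 30% and 18.4% of all genes. In bulk RNA, fewer cells of a type and less RNA per cell cannot be told apart, and the same holds for the changes given here.

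Sdha stood at 39.8, 41.1 and 43.7 FPKM in shLuci replicates 1 to 3 and at 62.8, 59.5 and 58.8 FPKM in shLuci+OGD replicates 1 to 3. The groups did not overlap, and the log2 change was 0.53 ± 0.12 (SE, fold 1.45, 95% interval 1.21 to 1.73, limma adjusted p = 0.00507). Atp5a1 stood at 219, 219.9 and 206 FPKM before and at 274, 284 and 270.4 FPKM after OGD. The log2 change came to 0.36 ± 0.08 (SE, adjusted p = 0.00363), again without overlap. Atp5b moved from 614, 573 and 552 FPKM to 668, 766 and 699 FPKM, with a log2 change of 0.29 ± 0.09 (SE, adjusted p = 0.0376). Both subunits of the catalytic head of ATP synthase thus rose, and neither pair of groups overlapped. The call of Atp5b was lost without shLuci replicate 2 (adjusted p = 0.108), shLuci replicate 3 (0.129), or, among the deprived libraries, shLuci+OGD replicate 2 (0.144) or 3 (0.0818), and also under median-of-ratios scaling (log2 change 0.21, 0.267), quantile normalization (0.17, 0.232) and the replicate block (0.29, 0.0503).

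Atp5s, a gene of low level, rose from 2.87, 3.19 and 3.64 FPKM to 6.16, 5.74 and 5.75 FPKM. Its log2 change of 0.78 ± 0.13 (SE, adjusted p = 0.000847) was the largest of the members called, and it stayed called in 15 of 15 alternatives in which it was tested. Ndufaf1 stood at 7.05, 8.28 and 8.06 FPKM before and at 11.4, 11.5 and 9.54 FPKM after OGD, a log2 change of 0.45 ± 0.10 (SE, adjusted p = 0.0078). Mt-nd4 moved from 949, 813 and 1050.1 FPKM to 1454, 1238 and 1230.0 FPKM (log2 change 0.48 ± 0.11, SE, adjusted p = 0.00761). In all 3 genes every library after OGD exceeded every library before it. Sdha, Atp5a1 and Ndufaf1 were not called after scaling to a common total (adjusted p = 0.0868, 0.109 and 0.076), and their log2 changes there were 0.51, 0.33 and 0.42. Among 16 alternatives, the call of Atp5a1 was lost in 2 (limma adjusted p up to 0.111) and that of Mt-nd4 in 1 (0.0534). Over all genes the calls were 1507 higher and 1057 lower, and under median-of-ratios scaling 1125 higher and 1344 lower.

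Without BMSC replicate 2 the picture in shLuci cells became broader. Of the nuclear members 26 were called higher and 2 lower (28.9% and 2.22%), against 28.4% and 17.2% of all genes. The difference between these shares was not tested. Of the 18 core subunits 10 were called higher and none lower, and of the 58 accessory subunits 11 were called higher and 2 lower. All 3 of Sdha, Sdhc and Sdhd were called higher (log2 changes 0.53, 0.29 and 0.23), while Sdhb, the iron-sulfur subunit, had a change of 0.10 (adjusted p = 0.364). Other core subunits called were Ndufs1 (0.43), Ndufs7 (0.32) and Ndufs8 (0.31) of the electron-carrying arm of complex I, Cyc1, the cytochrome c1 of complex III (0.43), and Atp5d, the delta subunit of ATP synthase (0.53). Ndufa1 and Ndufa13, accessory subunits of complex I, were called lower (-0.32 and -0.46). Mt-nd1, Mt-nd4, Mt-nd4l and Mt-nd5 were called higher (0.30, 0.48, 0.60 and 0.56).

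The cell type markers also moved in this comparison. Of the leukocyte list, Cd14, a monocyte receptor, was called higher in shLuci+OGD than in shLuci (log2 change 0.71 ± 0.11, SE, adjusted p = 0.000328), and the summed level of the list was 7.32 to 8.87 FPKM in shLuci and 12.4 to 13.5 FPKM in shLuci+OGD. Cd68, the other leukocyte marker in the table, stood between 0.531 and 1.81 FPKM in the 15 libraries, so the summed level was mostly that of Cd14. Cd68 did not rise with it: its log2 change with OGD was -0.14 in the mean of both hairpins (limma adjusted p = 0.648) and 0.005 in shRac1 (0.998). Of the mesenchymal list, Thy1 was called lower (-0.49 ± 0.08, SE, adjusted p = 0.000733), as 1 of 5 markers tested. The muscle marker Acta1 (-0.68) and the neuronal marker Tubb3 (-0.93) were called lower, the first at summed levels of 2.89 to 3.74 FPKM in shLuci and 1.80 to 2.26 FPKM in shLuci+OGD and the second at 3.93 to 4.89 and 1.82 to 2.24 FPKM. Their part in the changes of the respiratory genes was not tested.

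**Figure D3:**
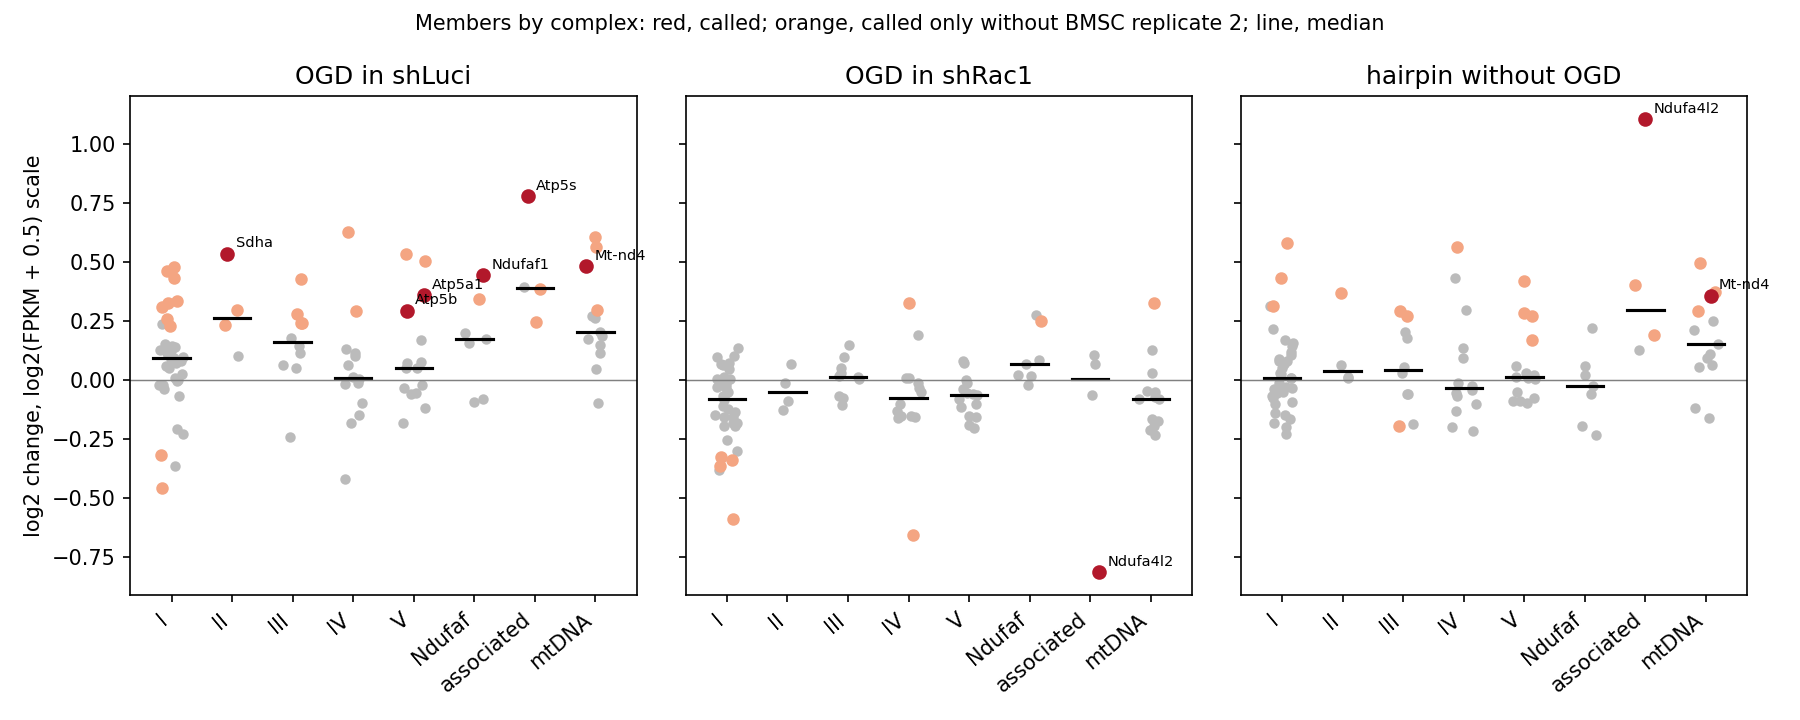
Log2 change of each member (on the log2(FPKM + 0.5) scale) for OGD in shLuci cells, for OGD in shRac1 cells and for shRac1 against shLuci without OGD, grouped by complex with the short second rows included, then Ndufaf assembly factors, associated genes and mitochondrially encoded genes. Red points were called by limma at an adjusted p below 0.05, orange points only without BMSC replicate 2, and lines mark medians. Sdha, Atp5a1, Atp5b, Atp5s, Ndufaf1 and Mt-nd4 stand out in the first panel and Ndufa4l2 in the other two panels.

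In the cells labelled shRac1, OGD went with no called change in any subunit. Ndufa4l2, a relative of the complex IV subunit Ndufa4 that is known to be induced by low oxygen, was the only nuclear member called, and it was lower after OGD. It passed the filter on low values only through the shRac1 libraries, the high group of this comparison, so this call is a description. It stood at 2.05, 2.08 and 1.52 FPKM in shRac1 replicates 1 to 3 and at 1.12, 0.661 and 0.806 FPKM in shRac1+OGD. The groups did not overlap, and on the log2 scale the change came to -0.82 ± 0.16 (SE, adjusted p = 0.00486, limma). This is 1 of 90 nuclear members called, against 7.76% of all genes called higher and 4.19% called lower. The groups did not overlap for 6 nuclear members higher and 14 lower after OGD, against 30.7% and 19.5% of all genes. Of the mitochondrially encoded genes limma called 0 of 13, with 1 at an unadjusted p below 0.05, Mt-nd6 (log2 change 0.32, adjusted p = 0.0622). The count stayed at 0 with a pseudocount of 1 or 0.1. It was 1 without BMSC replicate 2 (Mt-nd6, limma adjusted p = 0.0186) and with the replicate block, and larger with compared groups only. Of the markers of other cell types, Tubb3 was called higher (1.43, adjusted p = 1.42e-06, limma) and Acta1 lower (-0.72, adjusted p = 0.0109). The neuronal marker Tubb3 stood at 2.36 to 2.54 FPKM in shRac1 and 6.77 to 7.86 FPKM in shRac1+OGD, and the muscle marker Acta1 at 5.14 to 6.45 and 3.12 to 3.66 FPKM, and their part in the result was not tested.

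The members that rose in shLuci cells had small estimates here. Sdha stood at 52.5, 53.1 and 55.4 FPKM in shRac1 and at 49.7, 50.3 and 51.5 FPKM in shRac1+OGD, a log2 change of -0.09 ± 0.12 (SE, 95% interval of the fold 0.789 to 1.12). The log2 changes of Atp5a1, Atp5b and Mt-nd4 were -0.08, -0.05 and -0.08, and those of Atp5s and Ndufaf1 were 0.07 and -0.02, and none of them was called. Without BMSC replicate 2, 2 nuclear members were called higher and 6 lower, against 19.2% and 10.9% of all genes. Over all genes the calls with all libraries were 894 higher and 482 lower, and under median-of-ratios scaling 717 higher and 604 lower. Cox4i2, a complex IV isoform that is known to replace Cox4i1 at low oxygen in other cells, was called lower without BMSC replicate 2 (-0.66). So were the complex I subunits Ndufa12 (-0.37), Ndufa13 (-0.59), Ndufb9 (-0.33) and Ndufv2 (-0.34).

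The mean of both OGD groups against the mean of both infected groups without OGD does not depend on which hairpin label belongs to which undeprived group. Here Atp5s and Mt-nd6 rose and no member fell, and 7 nuclear members had an unadjusted limma p below 0.05 in either direction. For Atp5s the log2 change was 0.42 ± 0.09 (SE, adjusted p = 0.00636, limma). The Atp5s call was lost in 1 of 21 alternatives (limma adjusted p = 0.124). Its 6 libraries without OGD ran from 2.87 to 4.57 FPKM and its 6 libraries with OGD from 4.17 to 6.16 FPKM, so they overlapped. Mt-nd6, the complex I gene on the other strand of mitochondrial DNA, had a log2 change of 0.25 ± 0.07 (SE, adjusted p = 0.0266). It stood at 87.6, 87.9 and 97.3 FPKM in shLuci, at 86.4, 77.9 and 87.1 FPKM in shRac1, at 105, 91.8 and 114 FPKM in shLuci+OGD and at 96.3, 108 and 111 FPKM in shRac1+OGD. Its call was lost on leaving out any of 7 libraries (shLuci replicates 1 and 2, shRac1 replicate 2, shLuci+OGD replicates 1 and 3, shRac1+OGD replicates 2 and 3), with adjusted p from 0.0565 to 0.0734. Over all alternatives the Mt-nd6 call was lost in 9 of 22, with limma adjusted p up to 0.144.

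Of the 90 nuclear members, 1 was called higher in the comparison of both hairpins, against 12.5% of all genes called higher and 7.03% called lower. None of the 90 had its 6 libraries on each side apart without overlap, against 7.51% of all genes higher and 3.53% lower. The 95% interval of the change lay within 1.5-fold in either direction for 73 of the 90 (81.1%), compared with 68.9% of all genes. Changes beyond that size were thus outside the interval for most nuclear members. Without BMSC replicate 2, 13 nuclear members were called higher and 4 lower, against 27.9% and 14.2% of all genes. Of the 13, 7 were core subunits: Sdha (0.22), Sdhc (0.18), Atp5a1 (0.14), Atp5b (0.12), Atp5d (0.31), Cyc1 (0.23) and Ndufs1 (0.25). The 4 called lower were Cox4i2 (-0.54) and the accessory complex I subunits Ndufa1 (-0.26), Ndufa13 (-0.52) and Ndufb11 (-0.20), and Cox6a2, the muscle isoform of a complex IV subunit, was called higher (0.48). The median log2 change of the nuclear members was 0.04, beside 0.07 for all genes, and it became -0.03 with median-of-ratios scaling, when all genes had 0.002. The calls over all genes moved from 1440 higher and 809 lower to 964 higher and 1074 lower under that scaling.

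Without OGD, Ndufa4l2 was the only nuclear member called between the libraries labelled shRac1 and shLuci, and its call is a description. It stood at 0.491, 0.731 and 0.602 FPKM in shLuci and at 2.05, 2.08 and 1.52 FPKM in shRac1. The log2 change of 1.10 ± 0.16 (SE, fold 2.15, 95% interval 1.69 to 2.74, limma adjusted p = 0.000393) describes that group. All 3 shRac1 libraries lay above the other 12, which ran from 0.491 to 1.17 FPKM. Ndufa4l2 reached 1 FPKM in 5 libraries, 3 of them shRac1, so it passed the filter only through the group in which it was high and had to differ there, and it is removed when a mean of 5 FPKM is required. Its relative Ndufa4 stood between 134 and 205 FPKM in every library but BMSC replicate 2.

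Mt-nd4 was also called higher in shRac1, at 1118, 1173 and 1298 FPKM against 949, 813 and 1050.1 FPKM (log2 change 0.36 ± 0.11, SE, adjusted p = 0.0486). This call was lost without shLuci replicate 1 (adjusted p = 0.108) or 2 (0.222), and without shRac1 replicate 1 (0.0676), 2 (0.111) or 3 (0.189). Over all alternatives the Mt-nd4 call was lost in 9 of 16. The 1 nuclear member called, Ndufa4l2, is to be read against 6.92% of all genes called higher and 9.82% called lower. With a mean of at least 5 FPKM required, no nuclear member was called. Without overlap were 16 nuclear members higher and 7 lower, against 21.9% and 25.6% of all genes. Without BMSC replicate 2, 14 nuclear members were called higher and 1 lower, against 17% and 20.4% of all genes. They include Sdha (0.37), Atp5b (0.27), Atp5a1 (0.17), Atp5g2, which encodes the c-ring subunit (0.42), Ndufa12 (0.58) and Ndufb9 (0.43), while Uqcrfs1, the Rieske iron-sulfur protein of complex III, was called lower (-0.20).

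After OGD, the libraries labelled shRac1 had lower Atp5a1 than those labelled shLuci, and no other member was called. The values were 219, 228 and 239 FPKM in shRac1+OGD and 274, 284 and 270.4 FPKM in shLuci+OGD, without overlap, and the log2 change was -0.27 ± 0.08 (SE, limma adjusted p = 0.047). This call was lost on leaving out any of the 6 libraries compared, with adjusted p from 0.0755 to 0.192. Over all alternatives the Atp5a1 call was lost in 11 of 16, with limma adjusted p up to 0.564. In the same comparison 3.85% of all genes were called higher and 3.59% lower. The groups did not overlap for 1 nuclear member higher and 18 lower, against 14.7% and 23.2% of all genes. Without BMSC replicate 2, 7 nuclear members were called, all of them lower, against 9.1% of all genes higher and 12.4% lower. The 7 were Atp5a1, the complex II subunits Sdha (-0.25), Sdhc (-0.21) and Sdhd (-0.29), the complex I subunits Ndufa10 (-0.21) and Ndufa12 (-0.26), and Atp5s (-0.31). The median log2 change of the 90 nuclear members was -0.13, beside -0.05 for all genes. It was -0.079 beside 0.001 with a common total, and -0.084 beside -0.003 with median-of-ratios scaling. These medians are small and were not tested. Of the mitochondrially encoded genes limma called 0 of 13, with 0 at an unadjusted p below 0.05, and again called 0 without BMSC replicate 2, with 3 at an unadjusted p below 0.05.

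The difference between the hairpins in their change with OGD was tested directly as an interaction. Atp5a1, Sdha, Atp5s, Ndufaf1, Ndufa4l2 and Mt-nd4 were called, and in each the change with OGD was lower in shRac1 than in shLuci. The interaction of Sdha was -0.62 ± 0.17 on the log2 scale (SE, limma adjusted p = 0.0212) and that of Atp5a1 was -0.44 ± 0.11 (SE, adjusted p = 0.0118). For Atp5s it was -0.71 ± 0.19 (SE, adjusted p = 0.0198), for Mt-nd4 -0.56 ± 0.16 (SE, adjusted p = 0.0292) and for Ndufaf1 -0.46 ± 0.15 (SE, adjusted p = 0.0497). That of Ndufa4l2 was -1.21 ± 0.23 (SE, adjusted p = 0.0025), but it entered the fit only through its shRac1 libraries, in which it is high without OGD, so its call is a description. The 5 of 90 nuclear members called, all negative and with Ndufa4l2 among them, compare with 8.88% of all genes called positive and 7.82% called negative.

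The level of Sdha shows the form of this difference. Its group means rose from 41.5 ± 1.97 to 60.3 ± 2.17 FPKM with OGD in shLuci (SD, n = 3) and were 53.7 ± 1.55 and 50.5 ± 0.937 FPKM without and with OGD in shRac1. The lowest of the 4 groups was therefore shLuci without OGD, the highest was shLuci with OGD, and both shRac1 groups lay between them. The groups of Atp5a1 and Mt-nd4 fell in the same order at their ends. The interaction call of Sdha was lost without shLuci replicate 1 (adjusted p = 0.0546), shRac1 replicate 3 (0.0526), shLuci+OGD replicate 1 (0.0523) or shRac1+OGD replicate 1 (0.0507), and with a common total (0.216). That of Atp5s was lost without shLuci replicate 1 (0.0552) or shRac1+OGD replicate 3 (0.0565), and with quantile normalization (0.0951). That of Atp5a1 was lost with a common total (0.231) and quantile normalization (0.261). That of Mt-nd4 was lost without shLuci replicate 1 or 2, shRac1 replicate 2 or 3, shLuci+OGD replicate 1 or any shRac1+OGD replicate (0.0552 to 0.0804). That of Ndufaf1 was lost without any shLuci or shRac1+OGD replicate, shRac1 replicate 2 or 3, or shLuci+OGD replicate 1 or 2 (0.0622 to 0.125). Over all alternatives, the Mt-nd4 interaction was lost in 10 of 22 (limma adjusted p up to 0.199) and that of Ndufaf1 in 14 of 22 (up to 0.27).

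Without BMSC replicate 2, the interaction was called in 18 nuclear members as negative and in 1 as positive (20% and 1.11%), against 19.3% and 17.3% of all genes. Of the 18 core subunits 8 were called and of the 58 accessory subunits 6, all of them negative. The mitochondrially encoded genes had 5 negative calls, Mt-nd1, Mt-nd3, Mt-nd4, Mt-nd4l and Mt-nd5, which are all subunits of complex I. Ndufaf4, an assembly factor, was the nuclear member with a positive interaction. With the 2 undeprived groups exchanged, Ndufa4l2 was the only member called (1.00 ± 0.23, SE, adjusted p = 0.0219), with 2.61% of all genes called positive and 3.51% negative, and without BMSC replicate 2 there were 2 nuclear members positive and 2 negative, against 8.34% and 12.9%. The interactions of Sdha, Atp5a1, Atp5s, Ndufaf1 and Mt-nd4 thus rest on the titles of the shLuci and shRac1 libraries without OGD.

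**Figure D4:**
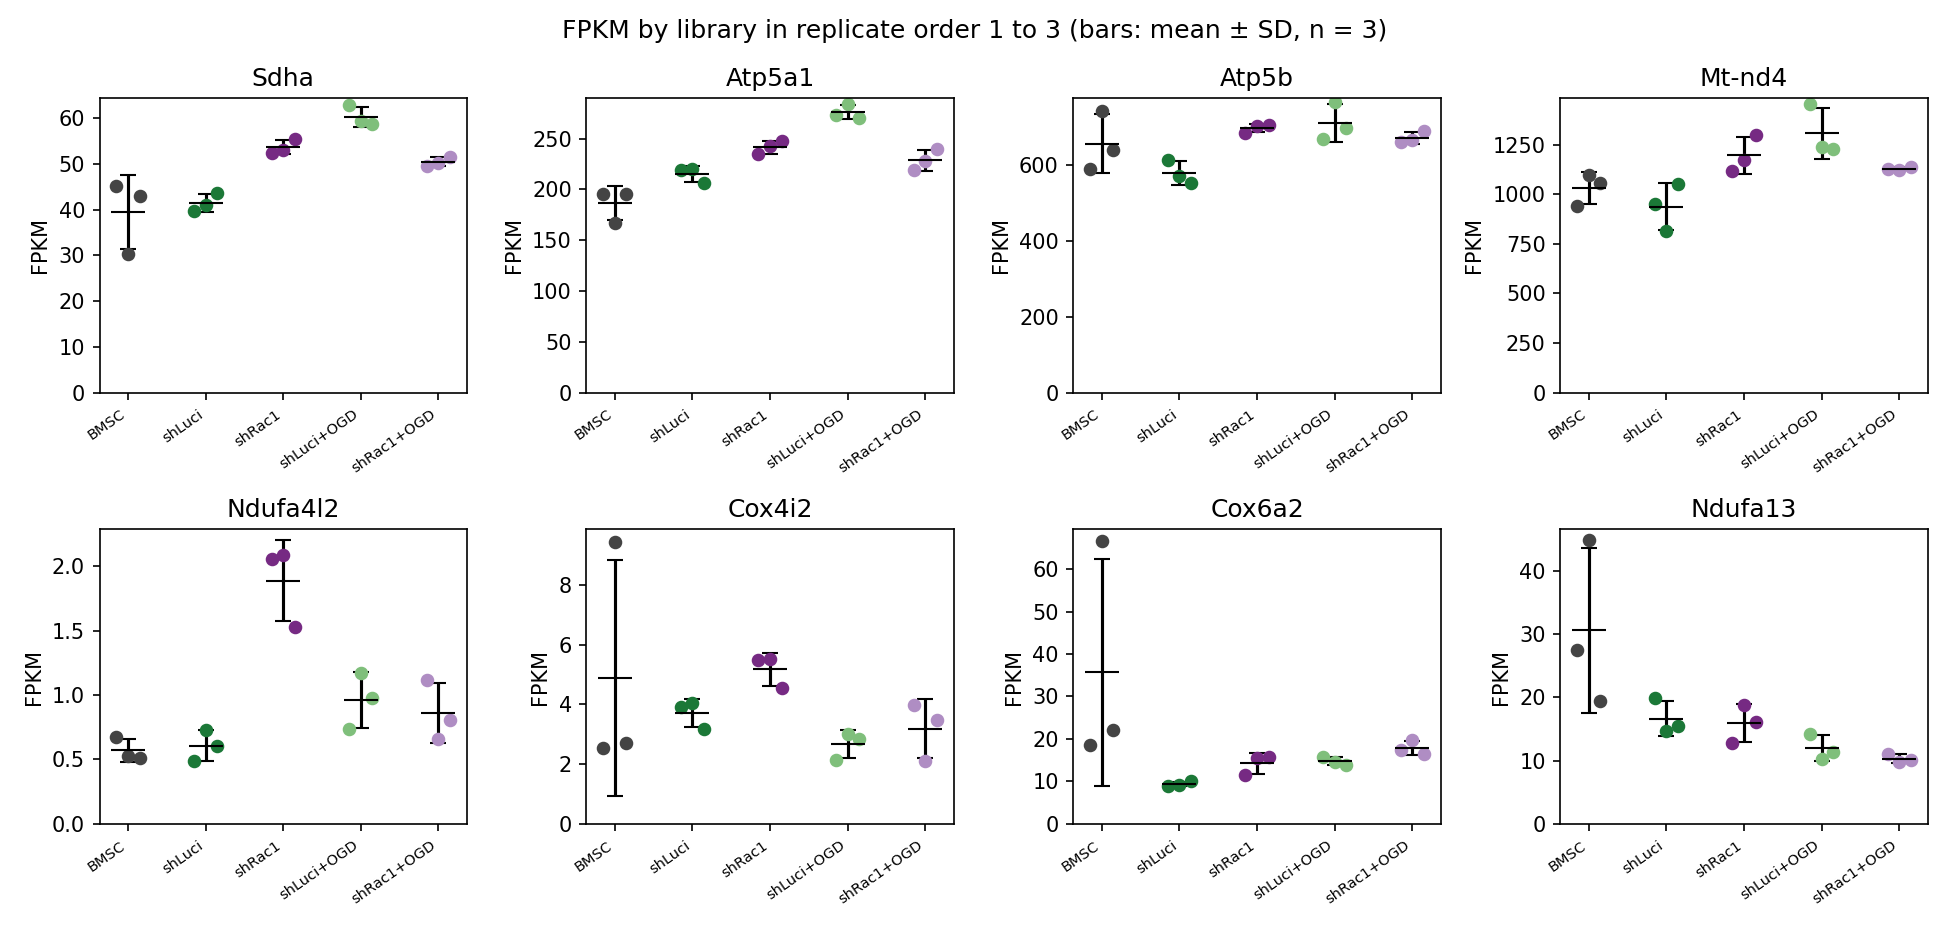
FPKM of 8 members by library, in replicate order 1 to 3 within each group, with the mean ± SD (n = 3). Sdha, Atp5a1, Atp5b and Mt-nd4 are highest in shLuci+OGD, Ndufa4l2 is highest in shRac1, and Cox4i2, Cox6a2 and Ndufa13 are highest in BMSC replicate 2.

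The promoters of Sdha, Atp5a1 and Ndufa4l2, which were among the nuclear members called, follow from RefSeq (250 bases before to 50 after the gene start, build GRCr8, all on the plus strand). Capitals mark matches, on either strand, to the letters searched for 4 factors known to act at respiratory gene promoters: NRF1 (its palindromic consensus, exact or in a looser form with a central base left free), GABPA (CCGGAAGT), YY1 (AAGATGGC) and CREB (TGACGTCA). The windows are chr1:30764303-30764602 for Sdha, chr18:73567287-73567586 for Atp5a1, which RefSeq names Atp5f1a, and chr7:65241919-65242218 for Ndufa4l2.
Sdha: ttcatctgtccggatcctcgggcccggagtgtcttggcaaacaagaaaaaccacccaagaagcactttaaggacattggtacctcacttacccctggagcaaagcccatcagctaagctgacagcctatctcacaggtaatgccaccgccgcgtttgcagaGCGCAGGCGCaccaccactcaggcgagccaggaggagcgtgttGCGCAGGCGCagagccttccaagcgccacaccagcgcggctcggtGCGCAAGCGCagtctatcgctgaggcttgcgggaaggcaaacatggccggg
Atp5a1: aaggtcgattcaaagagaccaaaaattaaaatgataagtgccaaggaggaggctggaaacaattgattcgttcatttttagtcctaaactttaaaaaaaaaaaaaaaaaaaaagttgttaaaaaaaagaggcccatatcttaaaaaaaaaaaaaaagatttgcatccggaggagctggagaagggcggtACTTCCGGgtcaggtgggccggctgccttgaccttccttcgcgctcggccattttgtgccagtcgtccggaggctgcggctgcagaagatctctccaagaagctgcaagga
Ndufa4l2: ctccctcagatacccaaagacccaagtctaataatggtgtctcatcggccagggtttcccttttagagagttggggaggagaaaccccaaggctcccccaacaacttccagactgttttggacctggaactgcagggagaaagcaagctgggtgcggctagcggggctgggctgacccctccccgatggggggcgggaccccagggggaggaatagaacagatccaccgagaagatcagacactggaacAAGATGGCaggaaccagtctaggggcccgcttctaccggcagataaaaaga

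The Sdha window holds 3 matches to the looser NRF1 letters, the Atp5a1 window 1 match to the GABPA letters and the Ndufa4l2 window 1 match to the YY1 letters. A promoter window was found for 75 nuclear members. The exact NRF1 letters occurred in 6 of them (8%), those of Atp5g2, Atp5i, Atp5o, Ndufa11, Ndufaf4 and Ndufaf5, against 2.08% of the 8777 promoters of genes in the table and 0.932% of all 27457 RefSeq promoters. The looser NRF1 letters, which include the exact ones, occurred in 20% of member promoters, 10.8% of promoters of the table and 4.71% of all promoters. The YY1 letters had shares of 20%, 6.1% and 3.44%, the GABPA letters 10.7%, 8.82% and 4.01%, and the CREB letters 5.33%, 3.32% and 1.91%. The core of the hypoxia response element (ACGTG), a search added after the others, had shares of 29.3%, 26.2% and 19.7%. These are counts of letters in a window, and binding was not measured.

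The control virus alone, shLuci against uninfected cells, went with lower Cox6a2. Its values were 18.5, 66.5 and 22.1 FPKM in BMSC replicates 1 to 3 and 8.89, 9.23 and 10.0 FPKM in shLuci, without overlap. The log2 change was -1.64 ± 0.34 (SE, limma adjusted p = 0.00655), and -1.07 without BMSC replicate 2 (adjusted p = 3.75e-05). Mt-nd1 and Mt-atp6 were also called lower (log2 changes -0.47 ± 0.12 and -0.41 ± 0.12, SE, adjusted p = 0.0193 and 0.0358). Mt-nd1 stood at 1173, 1713 and 1394 FPKM in BMSC and at 1058, 954 and 1052 FPKM in shLuci. Its call was lost without shLuci replicate 2 (adjusted p = 0.0873), and that of Mt-atp6 without BMSC replicate 3 (0.0515) or any shLuci replicate (0.0611 to 0.129). Over all alternatives, the Mt-nd1 call was lost in 2 of 15 (limma adjusted p up to 0.356) and that of Mt-atp6 in 8 of 15 (up to 0.241). The Cox6a2 call was lost in 1 of 15 (0.193). Of the 90 nuclear members 1 was called lower, against 9.99% of all genes called higher and 4.29% called lower. The groups did not overlap for 5 nuclear members higher and 6 lower, against 19.6% and 7.23% of all genes.

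This comparison turned with BMSC replicate 2. The median log2 change of the nuclear members was -0.16 with it and 0.17 without it, beside 0.11 and 0.06 for all genes. Without it, 18 nuclear members were called higher and only Cox6a2 lower, against 20.3% and 11.7% of all genes. Of the 18, 16 were accessory subunits, such as Ndufb11 (0.53), Cox7b (0.55), Ndufa3 (0.50) and Ndufa1 (0.46), and the other two were Sdhc and Sdhd. Mt-nd1, Mt-atp6, Mt-nd4l and Mt-nd5 were called lower. The muscle marker Acta1 stood at 7.21 to 11.4 FPKM in BMSC against 2.89 to 3.74 in shLuci and the neuronal marker Tubb3 at 9.97 to 10.5 against 3.93 to 4.89 FPKM, and their part in the result was not tested. Leaving out BMSC replicate 1 instead gave a median of -0.41 for the nuclear members. Median-of-ratios scaling moved the median of all genes from 0.115 to 0.006 and that of the nuclear members to -0.28, and it changed the split of all genes from 1150 higher and 494 lower to 758 higher and 713 lower. With a common total the medians were 0.18 for all genes and -0.086 for the nuclear members, and with quantile normalization 0.007 and -0.09. The gap to all genes was thus similar in the reported fit, with a common total and with median-of-ratios scaling, and smaller with quantile normalization.

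Across the isoform pairs of complex IV, the housekeeping form dominated in every library. Cox4i1 stood at 341 to 449 FPKM in 14 libraries and Cox4i2 at 2.09 to 5.53 FPKM. Cox6a1 stood at 393 to 552 FPKM and Cox6a2 at 8.89 to 22.1 FPKM in the same libraries. Cox4i2 reached 9.43 FPKM in BMSC replicate 2, with 2.53 and 2.70 FPKM in replicates 1 and 3. Among the infected libraries it was highest in shRac1, with 5.47, 5.53 and 4.54 FPKM against 3.91, 4.06 and 3.18 in shLuci, 2.13, 3.01 and 2.85 in shLuci+OGD and 3.98, 2.09 and 3.49 in shRac1+OGD. The shRac1 libraries lay above the 9 other infected libraries, but Cox4i2 was not called in the 7 comparisons with all 15 libraries. Among the small complex IV subunits, Cox6c stood at 422 to 667 FPKM in these 14 libraries, overlapping Cox6a1 and Cox4i1. Cox5b ran from 169.9 to 278 FPKM, Cox7a2 from 161 to 287, Cox7c from 156 to 264, Cox8a from 143 to 262, Cox5a from 166 to 231, Cox7b from 122 to 232 and Cox6b1 from 118 to 201 FPKM, and these 7 lay below Cox6c. Cox7a2l, a relative of Cox7a2 that links complexes III and IV, ran from 97.6 to 143 FPKM. Of the c-ring genes of complex V, which encode the same mature protein, Atp5g2 led with 252 to 509 FPKM in 14 libraries, ahead of Atp5g3 (220.3 to 353 FPKM) and Atp5g1 (137 to 196 FPKM).

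Ndufa13, an accessory complex I subunit, is carried by a row that spans 429 bases on chromosome 7, and RefSeq places the gene on another chromosome. The same holds for the short second rows of Cox6b1, Ndufv3 and Uqcrb, so reads of these rows may be shared with near-identical copies and their values are uncertain. The Ndufa13 row stood at 27.5, 44.8 and 19.4 FPKM in BMSC and at 11.1, 9.72 and 10.1 FPKM in shRac1+OGD, and that difference was called (log2 change -1.44 ± 0.25, SE, limma adjusted p = 0.00252). It was also called against BMSC in shLuci+OGD (-1.25) and shRac1 (-0.86, not called without BMSC replicate 2, adjusted p = 0.0508).

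Against the uninfected cells, Atp5a1 was called higher in each of shRac1 (0.38), shRac1+OGD (0.30) and shLuci+OGD (0.57), and these comparisons share their BMSC libraries. In shLuci+OGD 9 nuclear members were called higher and 2 lower, against 22.8% of all genes higher and 8.2% lower. The 9 include Sdha (0.63), Sdhc (0.35) and Sdhd (0.35) of complex II, Ndufs1 (0.87) of complex I and Uqcrc2 (0.61) and Uqcrfs1 (0.27) of complex III, and the 2 are Ndufa13 and Cox6a2 (-1.01). The count for shLuci+OGD without BMSC replicate 2 was 47 higher and 2 lower, against 35.5% and 14.6% of all genes, and the change of Ndufs1 was 0.47. In shRac1, Ndufa4l2 (1.15), Sdha (0.46) and Atp5a1 were called higher and Ndufa13 lower, against 6.39% and 4.31% of all genes, and without BMSC replicate 2 the count was 20 higher and 1 lower, against 12.5% and 8.61%. Ndufa4l2 passed the filter only through shRac1, so its call there is a description. In shRac1+OGD, 1 nuclear member was called higher and 1 lower, against 9.94% and 3.53% of all genes, and Mt-atp6 was called lower (-0.53). That count was, without BMSC replicate 2, 12 higher and 1 lower, against 18.6% and 7.71% of all genes.

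The pairs that cross both labels matter where the titles of the undeprived groups are in doubt. In shLuci+OGD against shRac1, Uqcrfs1 was called higher (0.26) and Ndufa4l2 lower (-0.71), against 10.7% of all genes higher and 5.01% lower, and without BMSC replicate 2 there were 11 higher and 2 lower, against 25.8% and 11.6%. The call of Ndufa4l2 is again a description, since it passed the filter only through shRac1. In shRac1+OGD against shLuci, Atp5s was the only nuclear member called (0.47, higher), against 5.87% and 4.89% of all genes, and without BMSC replicate 2 there were 7 higher and 3 lower, against 16.8% and 12.3%. Sdha had log2 changes of 0.17 (adjusted p = 0.433) and 0.28 (adjusted p = 0.183) in these pairs, and it was called higher in both without BMSC replicate 2 (adjusted p = 0.0198 and 0.000991).

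The authors' deposited table of changed genes, given for 6 pairs of groups, holds 4070 entries, of which 5 are members. In the authors' deposited table Ndufa4l2 has a log2 value of -0.84 for shLuci against shRac1 (q = 0.0165) and -0.87 for BMSC against shRac1 (q = 0.0636). The authors' deposited table also lists Cox6a2 for shLuci against BMSC (log2 -1.59, q = 0.304), Ndufa13 for shRac1+OGD against BMSC (log2 -1.40, q = 0.179) and Cox4i2 for shLuci+OGD against shRac1 (log2 -0.76, q = 0.0322). For shRac1+OGD against shLuci+OGD the authors' deposited table lists 558 genes and 0 members.

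**Figure D5:**
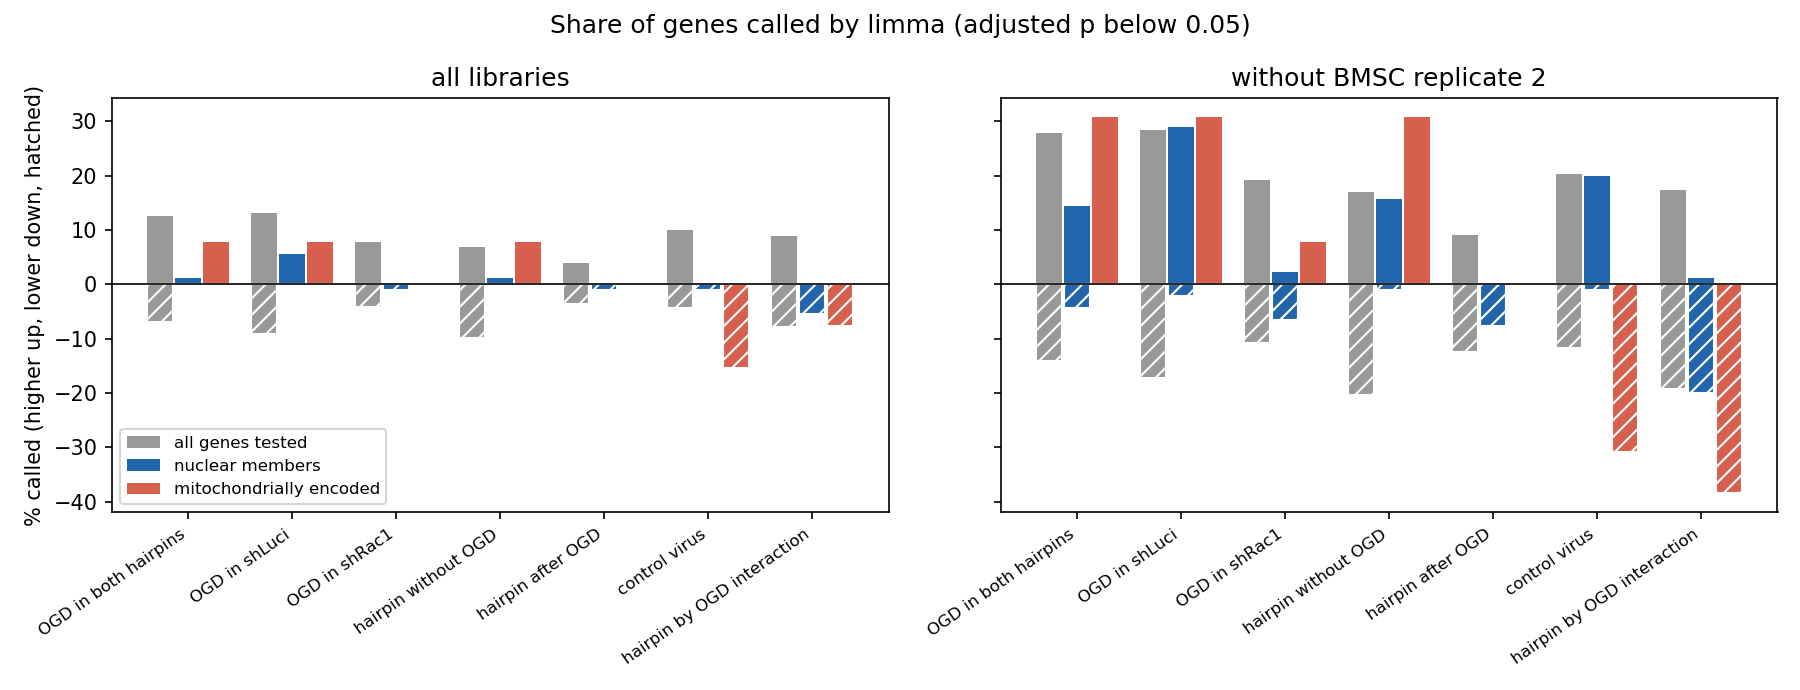
Percentage of all 11515 genes tested, of the 90 nuclear members and of the 13 mitochondrially encoded genes called by limma at an adjusted p below 0.05 in 7 comparisons, with higher calls upwards and lower calls downwards and hatched, using all libraries (left) and without BMSC replicate 2 (right). With all libraries the bars of the nuclear members reach at most 5.56% in either direction and lie below the bar of all genes of the same direction in each comparison, and without BMSC replicate 2 they reach 28.9% for OGD in shLuci.

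The genes that build and feed the chain were counted in the same fit, to be read against the 13.1% of all genes called higher and 9.18% called lower with OGD in shLuci. With OGD in shLuci, 2 of 9 complex I assembly factors outside the Ndufaf family were called higher, Acad9 (0.40) and Tmem186 (0.49). Of 13 assembly factors of complexes II, III and V, Atpaf2, a chaperone of ATP synthase, was called higher (0.49). Of 22 complex IV assembly factors 3 were called higher, Cox16 (0.76), Taco1 (0.60) and Lrpprc (0.30), and none lower. Polrmt, the mitochondrial RNA polymerase, was the 1 of 12 genes of mitochondrial DNA copying and transcription called (0.41). The tricarboxylic acid cycle genes Dlst (0.24) and Suclg1 (0.38) were called higher, and of 74 mitochondrial ribosome genes 4 were. Pyruvate entry had 3 of 11 genes called higher, the dehydrogenase phosphatases Pdp1 (0.72) and Pdp2 (0.75) and the kinase Pdk2 (0.85). Ppard rose (0.69) and Pprc1, a coactivator of the PGC-1 family, fell (-0.36) among 7 regulators of respiratory genes. When BMSC replicate 2 was left out, 28.4% of all genes were called higher and 17.2% lower, and the calls were 6 higher among the 9 complex I assembly factors, 3 higher among those of complexes II, III and V, and 10 higher and 1 lower among those of complex IV. They were then 1 higher for mitochondrial DNA copying and transcription, 6 higher and 1 lower for pyruvate entry, 22 higher and 1 lower for the mitochondrial ribosome, and 1 higher and 2 lower for the regulators.

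In the shRac1 libraries, OGD went with called rises of Tmem186 (0.55), Atpaf2 (0.29), Coa5, a complex IV assembly factor (0.32), Polrmt (0.36) and Mterf1, a termination factor of mitochondrial transcription (0.88). Tfb1m, a mitochondrial rRNA methyltransferase, and Pdp1 were called lower (-0.41 and -0.69). These are single calls picked from the lists above, to be read against 7.76% of all genes called higher and 4.19% called lower. Atpaf2, Tmem186 and Polrmt were also called higher with OGD in the mean of both hairpins (0.39, 0.52 and 0.38). Of the 9 genes of the hypoxia response at the chain, which include Ndufa4l2 and Cox4i2, 2 were called higher in that comparison, the mitophagy receptors Bnip3 (0.36) and Bnip3l (0.29). In the same comparison 12.5% of all genes were called higher and 7.03% lower. The interaction was called for Pdp1 (-1.41), Acad9 (-0.37), Dlst (-0.39) and Lonp1, the mitochondrial matrix protease (0.72), among others. Of all genes, 8.88% had a positive and 7.82% a negative interaction call, and the calls in these lists were not counted. The interaction was also called for Cd14 (-0.56) and Tubb3 (2.36), whose part in the results above was not tested.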

How the data were processed

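RNA-seq libraries of 15 samples in 5 groups were read from 1 gene table of FPKM values (fragments scaled to transcript length and library size), deposited by the authors and made with HISAT2 and StringTie 1.2.3 per the submitters' processing notes. No genome build is named in the sources used here. FPKM keeps no read depth, so depth is unknown and no counting interval is given. The authors' deposited table of comparisons holds log2 ratios (fold changes), p-values and q-values for 6 pairs, and its values are printed only where it is named.

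A gene was kept when 3 or more libraries had 1 FPKM or more (11515 of 12169, 654 removed). Values were log2(FPKM + 0.5), computed from the deposited FPKM, so changes of low genes are understated. A single limma 3.58.1 trend fit in R 4.3.3 took the 5 group means with 10 residual degrees of freedom, and p-values were adjusted by Benjamini-Hochberg over all genes kept, with calls at an adjusted p below 0.05. The fit was tested on simulated data. Tables and figures used pandas 2.3.3, numpy 2.4.6, scipy 1.17.1 and matplotlib 3.10.9. Alternatives were other pseudocounts, filters, scalings, a replicate block, compared groups only and each library left out. Named were the mitochondrially encoded genes, the most abundant subunit of each complex, up to 8 called members per comparison with the smallest adjusted p, isoform partners, the Sdh subunits and Cyc1; further members called without BMSC replicate 2 were named after their values were seen. Members and lists were chosen with earlier results of these data known. Promoter letters came from RefSeq, build GRCr8, matched by symbol or older symbol for 90 rows. Deviations of same-numbered samples of different groups were not more alike than those of samples with different numbers, and replicate numbers were not used as pairs. The full count of the tricarboxylic acid cycle list is not reported here.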

Additional observations from a re-analysis of the deposited data

Results flagged for a closer look

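In 6 genes the change with OGD differed between the cells labelled shRac1 and shLuci by the interaction test of limma. The change in shRac1 minus that in shLuci was -1.208 on the log2 scale for Ndufa4l2, -0.709 for Atp5s, -0.622 for Sdha, -0.564 for Mt-nd4, -0.465 for Ndufaf1 and -0.441 for Atp5a1. With the undeprived groups exchanged, Ndufa4l2 alone of the 6 remained called, with the opposite sign. Ndufa4l2 entered the fit only through its shRac1 libraries, so its calls are a description.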

How the results depend on the processing

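The 21 calls of single members kept their direction under every alternative run, and stayed past the threshold in 288 cases and fell short in 87. The calls of Ndufa4l2, which passed the filter only through shRac1, and of Atp5s with OGD in shLuci held in every alternative that keeps these genes; a mean of at least 5 FPKM removes both. The cause of the shifts below was not tested.

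With a common total, the nuclear members called were 5 for OGD in both hairpins, 5 for the hairpin without OGD, 0 for the hairpin after OGD and 4 for the control virus, and the mitochondrially encoded genes called were 0, 2 for OGD in shLuci, 2 for the hairpin without OGD and 2 for the interaction. With compared groups only, nuclear calls were 17, 18, 16, 14, 6, 0 and 19 for OGD in both hairpins, in shLuci and in shRac1, the hairpin without and after OGD, the control virus and the interaction, and mitochondrially encoded calls were 4, 4, 4, 4, 0, 0 and 5, when 41.9%, 35.2%, 37.9%, 32.4%, 18.2%, 1.57% and 36.3% of all genes were called, against 19.5%, 22.3%, 11.9%, 16.7%, 7.43%, 14.3% and 16.7% in the reported fit. Under the other alternatives except those that leave out a library, the share of all genes called was 16.6% to 20.1%, 19.2% to 24.7%, 9.04% to 12.1%, 13.5% to 17.9%, 5.48% to 7.82%, 11.8% to 14.7% and 13.5% to 18.5% in the same order. With a mean of at least 5 FPKM, nuclear calls were 0 for OGD in both hairpins, OGD in shRac1 and both hairpin comparisons and 2 for the interaction, and the mitochondrially encoded call without OGD was lost (0). Median-of-ratios scaling gave 2, 2, 0 and 3 nuclear calls for OGD in both hairpins, the hairpin without and after OGD and the control virus, and 0 mitochondrially encoded calls in the first, the second and the interaction. Without a filter, and with a pseudocount of 1, the hairpin without OGD had 2 nuclear calls. Quantile normalization gave 3, 2, 3, 0 and 7 nuclear calls for OGD in both hairpins, OGD in shRac1, the hairpin without and after OGD and the control virus, and 2, 2 and 1 mitochondrially encoded calls for OGD in both hairpins, OGD in shLuci and the control virus.

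Leaving out 1 library at a time, nuclear calls ran from 1 to 17 for OGD in both hairpins, 4 to 28 in shLuci, 1 to 8 in shRac1, 1 to 15 and 0 to 7 for the hairpin without and after OGD, 1 to 19 for the control virus and 2 to 19 for the interaction. Each upper end was reached without BMSC replicate 2. Then 27.9% of all genes were called higher and 14.2% lower for OGD in both hairpins. The shares were 28.4% and 17.2% in shLuci, 19.2% and 10.9% in shRac1, and 17% and 20.4% for the hairpin without OGD. They were 9.1% and 12.4% for the hairpin after OGD, 20.3% and 11.7% for the control virus and 17.3% and 19.3% for the interaction. Mitochondrially encoded calls ran from 0 to 4, 1 to 4, 0 to 1, 0 to 4, 0 to 0, 0 to 4 and 0 to 5 in that order. The medians of the nuclear members ran from 0.008 to 0.079, 0.044 to 0.177, -0.093 to -0.012, -0.032 to 0.073, -0.198 to -0.096, -0.41 to 0.172 and -0.243 to -0.104.

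Replicate numbers do not pair the samples: over 30 pairs of same-numbered samples the correlation of deviations ran from -0.638 to 0.56, with 11 over 0.1. With the replicate block, mitochondrially encoded calls were 1 for OGD in shRac1, 0 for the hairpin without OGD and 1 for the control virus, and nuclear calls after OGD were 0. FPKM gives no depth, so counting error is not separated from the spread between libraries.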
